A study of Quercus lobata with 12 samples.

Results

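In leaves of valley oak (Quercus lobata) seedlings, 125 of the 39373 genes in the count table were clearly expressed in some seedlings and nearly absent from others, in layouts that crossed the maternal families. The genes were chosen by their counts alone: in 3 to 9 of the 12 seedlings the gene had 3 counts or fewer (off), in all other seedlings it had 30 counts or more (on), and the on seedlings as well as the off seedlings came from 2 or more of the 3 families. Another 14 genes met the count thresholds but had their on or their off seedlings in 1 family alone, and these were left out. At the other end, 12083 genes had 30 counts or more in every seedling.

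RNA-seq was run on 12 seedlings, 2 control and 2 treated from each of 3 maternal families: YORK-09, HV-11 and LAY-15. Treated seedlings had been sprayed with 50 µM 5-Azacytidine in TWEEN 20, a detergent that helps a spray wet the leaf, and controls with TWEEN 20 alone, for 27 days from an age of 5 months. All seedlings had been pruned before spraying, so the leaves were regrowth, and these families had been picked because treated and control plants looked very different. RNA of the frozen leaves was extracted on days 16, 19 and 30 of October, so that extraction day is a day of laboratory work and not an age of the plant. On any day a family entered with 1 control and 1 treated seedling together, HV-11 and LAY-15 on days 19 and 30 and YORK-09 on days 16 and 30. Each seedling gave 1 library, with a total between 9926728 and 11570198 counts. Levels are given as counts or as CPM, counts scaled to library size with edgeR's TMM factors (0.879 to 1.18). At these depths 30 counts correspond to 2.47 to 3.21 CPM and 3 counts to 0.247 to 0.321 CPM, so an off gene was at or near the limit of this depth and was not shown to be silent. LAY-15-30 and LAY-15-34, the LAY-15 pair of day 19, deviated from their treatment means together more than any other pair (r = 0.503 across genes, 0.0507 to 0.297 in the other 5), and some results are also given without them.

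5-Azacytidine is a cytosine analog that is built into DNA and traps the enzymes that copy methyl marks to the new strand. In plants, methylation of promoters and transposons is known to keep genes silent. Valley oak is pollinated by wind, so acorns of 1 tree share their mother and mostly have different fathers, and siblings differ in the alleles they carry. The deposited table names genes by identifier only. Since 0 identifiers were found in the RefSeq annotation of valley oak, no function is assigned to any gene. Leaf markers could not be read for the same reason. Reads mapping to several places had been removed, so counts of genes with close copies are uncertain. The strand setting of the count is not given in the sources used here, so the same holds for overlapping and antisense genes.

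Off meant 3 counts or fewer by the selection, and most off states had 0 counts. Of 1500 states (125 genes in 12 seedlings), 782 were on (52.1%) and 718 were off. Among the off states, 476 (66.3%) had 0 counts, 140 had 1 count, 67 had 2 and 35 had 3. For 25 genes every off seedling had 0 counts, and 26 genes had at least 1 off seedling with 3 counts. The on state spanned a wide range of levels. The median CPM over a gene's on seedlings ran from 3.48 to 79.3, with a median of 10.6 over the genes, and 24 genes were above 20 CPM. In 29 genes every on seedling had 100 counts or more, whereas in 30 genes the lowest on seedling had 30 to 39 counts and sat close to the threshold.

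The on seedlings of a gene did not share 1 level. The highest on seedling exceeded the lowest by 1.16-fold to 33.7-fold, with a median of 3.61-fold. The standard deviation of log2 CPM over the on seedlings had a median of 0.73 over the 125 genes, against a median of 0.44 over the 12083 genes with 30 counts or more in every seedling, and 103 of the 125 genes lay above the latter. The latter genes were also higher, with a median level of 28.1 CPM, and the difference in spread was not tested. The 125 genes had been chosen on these same counts for differing between seedlings. Their spread was taken over the on seedlings alone, and that of the 12083 genes over every seedling. The part of this selection in the larger spread of the 125 genes was not tested, so the spread is not read as a property of the on state.

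QL12p029668 and QL01p001591 had the highest median CPM over their on seedlings, 79.3 and 60.8, although several genes, QL10p045782 and QL11p013986 among them, reached more in a single seedling than QL01p001591 did. Counts are listed below by seedling number within each family, an order that alternates control and treated. In HV-11 (seedlings 05, 33, 34 and 40), QL12p029668 had 721, 0, 2 and 0 counts. In LAY-15 (03, 09, 30 and 34) it had 0, 741, 137 and 671 counts, and in YORK-09 (03, 08, 10 and 37) it had 4341, 3886, 1 and 1066 counts. The gene was thus on in 1 HV-11, 3 LAY-15 and 3 YORK-09 seedlings, and its 2 highest values came from the YORK-09 pair of day 16. QL01p001591 had 703, 1, 733 and 0 counts in HV-11, 3, 1, 1 and 0 in LAY-15, and 810, 1032, 2 and 602 in YORK-09. Its 5 on seedlings were close together, between 57.3 and 84.8 CPM, with LAY-15 off throughout.

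The edge of the selection can be seen in a few genes. QL01p000861 stood just inside it, with 3, 1, 70 and 3 counts in HV-11, 3, 2, 62 and 33 in LAY-15, and 0, 3, 0 and 1 in YORK-09. QL09p020572 was the 1 gene with an on count of exactly 30, in YORK-09-37, while its other on seedlings had 71 to 366 counts. Just outside, 21 genes missed the selection only by 1 seedling with 4 counts and 3 genes only by 1 seedling with 29. The first by identifier were QL01p022696, with 4 counts in HV-11-05, 0 to 3 counts in 5 other seedlings and 50 to 129 in the rest, and QL02p083327, with 29 counts in LAY-15-09 and 34 counts or more in its other on seedlings.

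The number of genes that were on differed little between treatments and was lowest in LAY-15. Control seedlings had 53 to 74 of the 125 genes on (63.8 ± 7.94, mean ± SD, n = 6) and treated seedlings 54 to 74 (66.5 ± 7.42, n = 6), so the treatments overlapped almost fully. LAY-15 had 58.3 ± 5.56 genes on (n = 4), HV-11 69.0 ± 6.78 (n = 4) and YORK-09 68.3 ± 5.56 (n = 4). The 2 lowest seedlings were LAY-15-30 with 53 and LAY-15-34 with 54 genes on, the LAY-15 pair of day 19, and the other LAY-15 pair had 62 and 64. Seedlings of day 19 had 59.3 ± 8.26 genes on (n = 4, with 59 and 71 in the HV-11 pair) and those of day 30 had 68.2 ± 5.74 (n = 6). YORK-09 had seedlings of day 30 but none of day 19, so family and day are mixed in these 2 means.

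**Figure D1:**
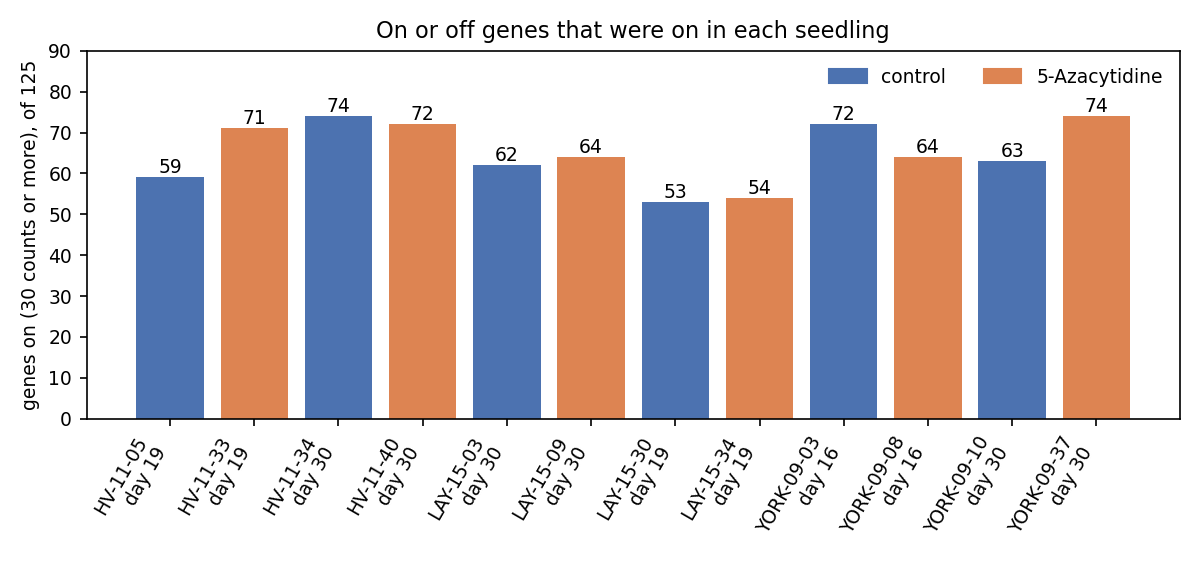
Bars give the number of the 125 on or off genes with 30 counts or more in each seedling, coloured by treatment and labelled with the extraction day. LAY-15-30 and LAY-15-34 are lowest with 53 and 54 genes, and HV-11-34 and YORK-09-37 highest with 74.

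In most combinations of a gene and a family, the siblings did not all share a state. Of the 375 combinations of a gene and a family, 59 were on in all 4 siblings, 47 were off in all 4 and 269 were mixed. HV-11 had 27 genes on and 13 off throughout, LAY-15 had 15 on and 21 off, and YORK-09 had 17 on and 13 off. Since the selection asks for on and off seedlings in several families, part of this mixture is set by it. Every gene had to be mixed in at least 1 family: 15 genes were mixed in 1 family, 76 in 2 families and 34 in all 3. In 15 genes, 1 family was on in all siblings and another was off in all.

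QL01p009420 and QL11p006325 had the highest median CPM over on seedlings of these 15 genes. QL01p009420 had 465, 166, 195 and 249 counts in LAY-15, at most 1 count in each HV-11 seedling, and 0, 1, 76 and 0 counts in YORK-09. It was on in every LAY-15 seedling and in YORK-09-10 only outside that family. QL11p006325 showed another layout, with 247, 260, 148 and 1120 counts in YORK-09, 192, 0, 0 and 109 in HV-11, and at most 1 count in each LAY-15 seedling.

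Siblings nevertheless were in the same state more often than seedlings of different families. The 48 comparisons between families had 47.9% of the 125 genes in the same state on average (SD 5.90, range 32.8% to 58.4%). The 12 comparisons within a family between extraction days had 58.7% (SD 7.68, range 41.6% to 71.2%), and the 6 pairs that share family and day had 62.1% (SD 8.67, range 51.2% to 76.8%). These shares describe the selected genes and were not tested, because the genes are not replicates, the selection limits how far they can follow families, and comparisons share seedlings.

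The highest agreement was that of the LAY-15 pair of day 19, LAY-15-30 and LAY-15-34, with 76.8% of the genes in the same state. Without these 2 seedlings, the remaining pairs of the same family and day averaged 59.2%, the comparisons within a family between days 60.2% and those between families 50.3%. Same-day siblings then did not exceed siblings of other days. The next highest value was 71.2% for YORK-09-03 and YORK-09-37, which differ in treatment and in day, and the lowest within a family was 41.6% for YORK-09-08 and YORK-09-10. Between families, sharing the treatment (47.4%, 24 comparisons, against 48.4% for those that differ) or the day (48.6%, 16 comparisons, against 47.6%) went with differences of about 1 percentage point, smaller than the SD over comparisons.

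**Figure D2:**
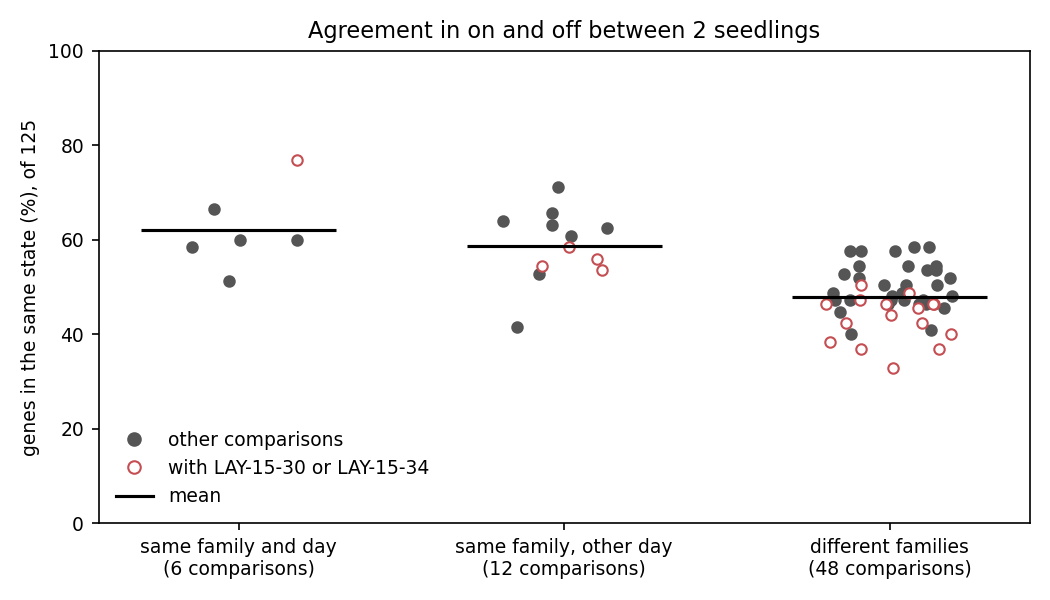
Each point is a comparison of 2 seedlings and gives the percent of the 125 genes in the same state, grouped by whether they share family and day, and lines give means (62.1%, 58.7% and 47.9%). Open red points involve LAY-15-30 or LAY-15-34, whose own comparison is the highest at 76.8%.

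On and off did not fall exactly along treatment with 5-Azacytidine for any of the 125 genes. Of these genes, 0 were on in all 6 treated and off in all 6 control seedlings or the reverse. Only the 17 genes on in exactly 6 seedlings could have shown this. The CPM of treated and control seedlings did not overlap for 0 of 125, against 0.0928% of the 33411 genes with at least 1 count. At so low a share, 0 of 125 does not set these genes apart. More treated than control seedlings were on for 53 genes, more control seedlings for 49, and equal numbers for 23. The difference never exceeded 3 seedlings, with 7 genes on in 3 more treated and 3 genes on in 3 more control seedlings.

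The quasi-likelihood test of edgeR, with extraction day in the model, called 0 of the 125 genes between treatments at an adjusted p-value under 0.05, where 0% of all 23791 tested genes were called. Before adjustment, 3 of the 125 genes (2.40%) were under 0.05, all with a higher fitted level in treated seedlings, beside 2.80% of all genes. That count was 0 of 125 without YORK-09-10, beside 660 of all 25498 genes tested. It was 5 without HV-11-33 (beside 655 of 25517) or without HV-11-40 (888 of 25474). It was 6 without LAY-15-03 (644 of 25518) or without YORK-09-37 (728 of 25484). Without the LAY-15 pair of day 19 it was 4, beside 883 of 24756, with 0 genes called. Among the seedlings of day 19 alone it was 6 of 116, beside 678 of all 23280. Among those of day 30 alone it was 11 of 124, beside 1070 of all 23748, with 0 genes called in either. DESeq2, the tool named in the study's methods, called 0 of the 97 genes that it gave a p-value, beside 0.0987% of all genes, and 8 of them had an unadjusted p-value under 0.05 (8.25%, beside 5.20% of all genes). The other 28 of the 125 genes were left without a p-value by DESeq2. They included all 3 genes under 0.05 before adjustment with edgeR, QL08p003749, QL09p054153 and QL93p0073_0472, so the 0 called of 97 does not cover these.

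Of the 7 genes on in 3 more treated than control seedlings, 5 were on in all 6 treated and 3 control seedlings, namely QL02p081740, QL10p045782, QL10p045923, QL11p008429 and QL11p008449. The other 2, QL08p003749 and QL11p040919, had the smallest unadjusted p-values of the 7. QL08p003749 was on in 3 treated seedlings, LAY-15-09 with 144 counts, HV-11-33 with 64 and LAY-15-34 with 49, and had 0 to 3 counts in the other 9 seedlings, 3 of them treated. Its mean was 4.38 ± 6.03 CPM in treated (SD, n = 6) and 0.120 ± 0.127 CPM in control seedlings (n = 6), and the adjusted p-value from edgeR was 1.00. QL11p040919 had 2, 172, 210 and 1 counts in HV-11, 1, 258, 0 and 0 in LAY-15, and 3, 264, 2 and 259 in YORK-09. It was on in 4 treated seedlings and in 1 control, HV-11-34, with 15 ± 12.2 CPM in treated and 3.03 ± 7.05 CPM in control seedlings (log2 fold change 3.52, approximate standard error 1.92, adjusted p = 1.00 from edgeR).

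Of the 3 genes on in 3 more control seedlings, QL04p033234 and QL11p033306 were on in every control seedling and QL11p016400 in 4 control seedlings and 1 treated. QL04p033234 had 226, 162, 317 and 507 counts in HV-11, 472, 2, 472 and 235 in LAY-15, and 1410, 1, 336 and 2 in YORK-09. The 3 off seedlings LAY-15-09, YORK-09-08 and YORK-09-37 were all treated, while the 3 treated HV-11-33, HV-11-40 and LAY-15-34 were on at 15.1, 44.6 and 23.4 CPM, beside 19.3 to 116.8 CPM in controls. The means were 13.9 ± 17.9 CPM in treated and 48.4 ± 35.2 CPM in control seedlings (log2 fold change -1.65, approximate standard error 1.33, adjusted p = 1.00 from edgeR). QL11p033306 was off in HV-11-33, LAY-15-09 and YORK-09-08 with at most 1 count, and had 60 to 173 counts in all others.

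The 6 pairs of a control and a treated sibling extracted on the same day gave the closest view of treatment. In 284 of 750 comparisons (125 genes in 6 pairs) the 2 siblings were in different states, and the treated seedling was the one that was on in 150 of them (52.8%) and the control in 134. The count of genes on in the treated sibling alone ran from 15 to 36 per pair and that of genes on in the control alone from 14 to 26. On day 19 in HV-11, the treated sibling alone was on for 31 genes and the control alone for 19, and in YORK-09 on day 30 these counts were 36 and 25. In YORK-09 on day 16 they leaned the other way, with 17 and 25. Of the 91 genes that differed in 2 or more pairs, 18 were always on in the treated sibling, 10 always in the control, and 63 went in both directions. Only 9 genes differed in 3 or more pairs and kept 1 direction.

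Where both siblings of a pair were on, the treated one had the higher CPM in 106 of 249 cases. The median log2 ratio of treated to control over these genes lay between -0.37 in YORK-09 on day 30 and -0.01 in LAY-15 on day 19. It was below 0 in 6 of 6 pairs with TMM or median-ratio scaling and in 5 of 6 pairs with total counts. This was not tested, since the genes of a pair are not replicates. The same ratio over all expressed genes is not given here, so a shift shared by all genes cannot be told apart.

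Within a family, the 2 on and 2 off siblings of a gene can follow extraction day, treatment or neither. In LAY-15, 36 genes were on in 2 siblings, and 22 of them followed the day, 14 on only on day 30 and 8 on only on day 19, against 6 that followed treatment and 8 that followed neither. This count cannot be given without LAY-15-30 and LAY-15-34, which are the day 19 seedlings of that family. In HV-11 there were 29 such genes, and 7 followed the day, 11 treatment and 11 neither. In YORK-09 there were 32, and 12 followed the day, 11 treatment and 9 neither. The 11 YORK-09 genes that followed treatment were on in both controls in 9 cases, and the 11 of HV-11 were on in both treated siblings in 6 cases. All together 28 genes followed treatment within a family, and 0 did so in 2 families. Extraction day within a family cannot be told apart from other differences between its 2 pairs of siblings.

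**Figure D3:**
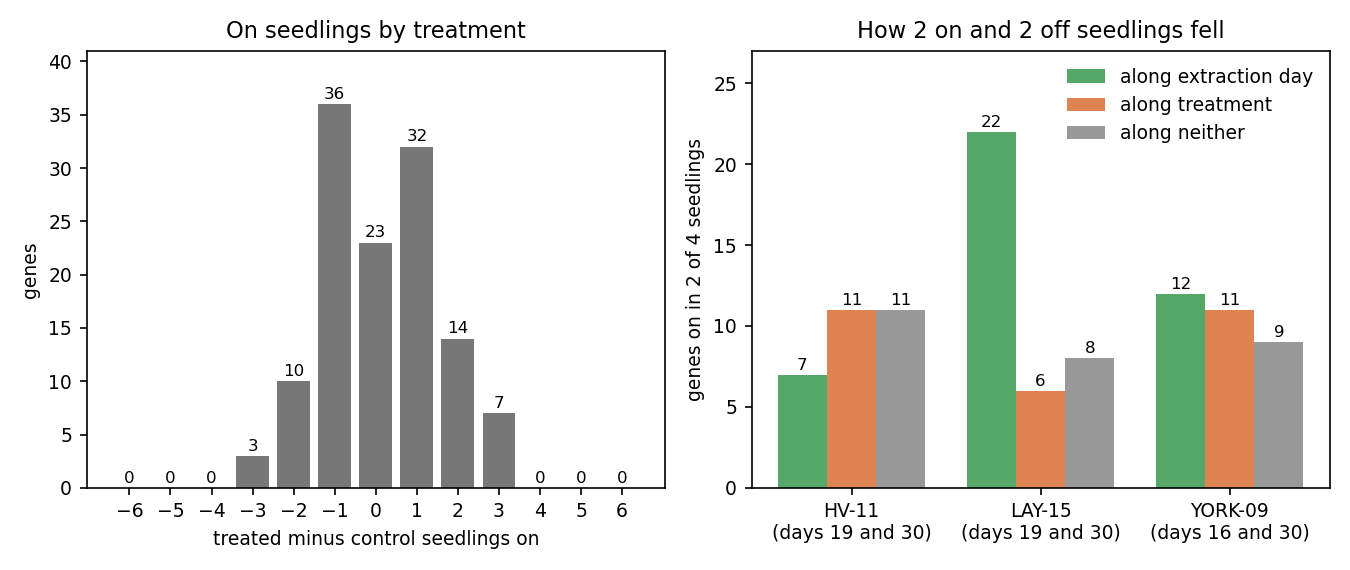
The left bars count the 125 genes by the number of treated minus control seedlings that were on, which stays between -3 and 3. The right bars count, for each family, the genes on in exactly 2 of 4 siblings by whether the on siblings share extraction day, treatment or neither, with 22 of 36 genes in LAY-15 along the day.

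Extraction day was compared between days 30 and 19, and the tests had family and treatment as covariates. The shares and the overlap were taken without covariates, over 6 seedlings of day 30 and 4 of day 19. YORK-09 had seedlings of day 30 but none of day 19, so family and day are mixed in them. In the tests with family in the model, the difference between these days rested on HV-11 and LAY-15. A larger share of day 30 than of day 19 seedlings was on for 62 genes, a smaller share for 47 and an equal share for 16. The CPM of day 30 and day 19 seedlings did not overlap for 2 of the 125 genes, QL01p000499 and QL11p016400, or 1.60%, beside 1.76% of all genes with a count. QL11p016400 was off in 2 of the 6 day 30 seedlings, and LAY-15-09 of day 30 exceeded HV-11-05 and HV-11-33 of day 19 only through library scaling, each having 1 count. With edgeR, 0 of 125 genes were called, as were 0% of all genes, and 13 of 125 (10.4%) had an unadjusted p-value under 0.05, beside 9.40% of all genes. DESeq2 called 13 of 125 genes (10.4%, beside 2.56% of all genes), 10 higher and 3 lower on day 30, and 35 (28.0%, beside 15.8% of all genes) had an unadjusted p-value under 0.05. Without LAY-15, DESeq2 called 12 of 118 genes (10.2%, beside 1.34% of all genes), of which 5 were among the 13. These 12 were evenly split, with 6 higher and 6 lower on day 30. In that fit the difference between days rested on HV-11 alone, with 2 seedlings of each day. The smallest adjusted p-value from DESeq2 was that of QL93p0100_0146, 5.72e-12, to which edgeR gave 0.538. This gene was on in 2 of 6 day 30 seedlings, HV-11-40 with 40 counts and YORK-09-10 with 74, and in 0 of 4 day 19 seedlings. In the families with both days it was thus on in HV-11-40 alone. Its log2 fold change from DESeq2, 27.05, is larger than such counts can show, so this call is not read as a difference by day. The selection favours genes that vary strongly between these same seedlings, and its part in the higher shares from DESeq2 was not tested.

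QL01p000499 was the only one of the 125 genes that followed the day in more than 1 family, and it was off in every seedling of day 19. It had 0, 0, 104 and 88 counts in HV-11, 79, 99, 1 and 0 in LAY-15, and 224, 284, 182 and 84 in YORK-09. The 4 off seedlings HV-11-05, HV-11-33, LAY-15-30 and LAY-15-34 are all those of day 19, and both seedlings of day 16 and all 6 of day 30 were on. Its level was 10.3 ± 4.30 CPM on day 30 (SD, n = 6, YORK-09 included) and 0.0242 ± 0.0485 CPM on day 19 (n = 4, without YORK-09). The adjusted p-value was 0.0726 from edgeR, the smallest of all genes in that test, and 3.28e-10 from DESeq2. Over 18 alternative edgeR fits it lay between 0.00885, without family in the model, and 0.591, without LAY-15. In the latter fit only HV-11 held both days. Its levels by treatment overlapped, with 9.00 ± 8.35 CPM in control and 8.28 ± 8.60 CPM in treated seedlings (n = 6 each, adjusted p = 1.00 from edgeR).

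QL03p005070 and QL07p044565 followed, each on in all day 30 and 1 of 4 day 19 seedlings. QL03p005070, the one with the smaller edgeR p-value, had 0, 0, 164 and 110 counts in HV-11, 121, 44, 0 and 35 in LAY-15, and 235, 68, 89 and 33 in YORK-09. It was on in all seedlings of days 16 and 30 and in LAY-15-34 alone on day 19, with an adjusted p-value of 0.515 from edgeR and 0.0195 from DESeq2. In the other direction, QL06p019074 was on only on day 19. HV-11-33 had 35 counts, LAY-15-30 had 231 and LAY-15-34 had 40, with at most 3 counts in the other 9 seedlings (adjusted p = 0.510 from edgeR and 0.0369 from DESeq2). QL09p035049 was on in 3 seedlings of day 19 (131, 120 and 99 counts) and in LAY-15-09 of day 30 (183 counts), and had 0 to 2 counts elsewhere (adjusted p = 0.741 from edgeR).

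**Figure D4:**
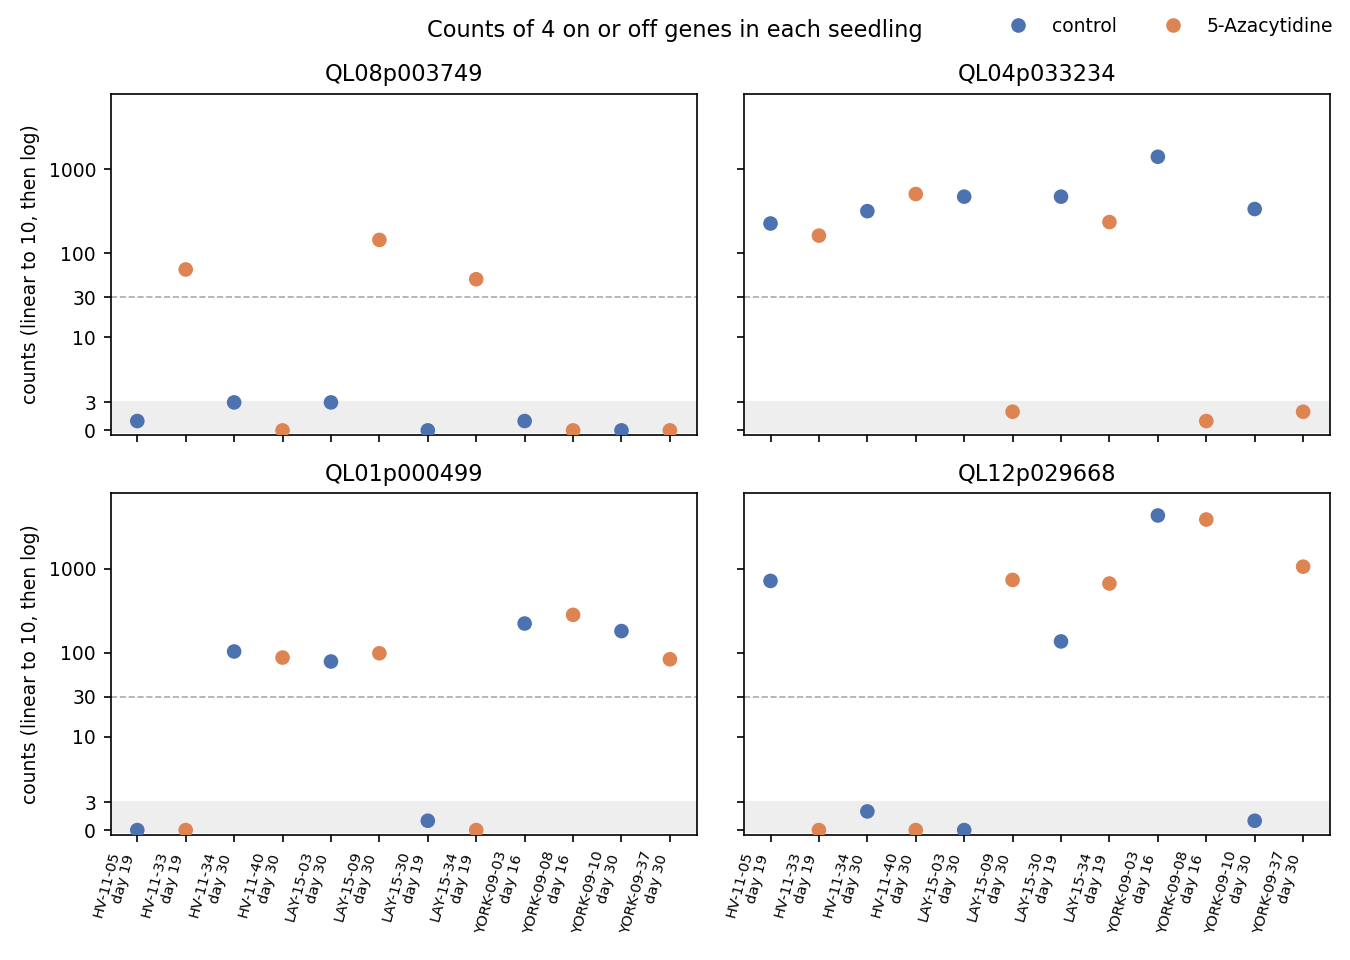
Counts per seedling of QL08p003749, QL04p033234, QL01p000499 and QL12p029668, on an axis that is linear to 10 and logarithmic above, with the off range of 0 to 3 counts shaded and a dashed line at 30. QL01p000499 is at 0 or 1 count in the 4 seedlings of day 19 and at 79 to 284 counts in the other 8.

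The 125 genes took 106 different layouts over the 12 seedlings. Of these layouts 91 belonged to 1 gene, 11 to 2 genes and 4 to 3 genes, so 34 genes shared theirs with another. By level, QL11p013986, QL05p000021 and QL08p013554 lead 3 of the 4 layouts held by 3 genes. QL11p013986 had 369, 185, 771 and 1797 counts in HV-11, 222, 1, 0 and 1 in LAY-15, and 997, 193, 1 and 0 in YORK-09. QL05p000021 was on in all HV-11 seedlings and in LAY-15-09 alone elsewhere, with 120 to 235 counts. QL08p013554 was off in LAY-15-30, LAY-15-34 and YORK-09-08 with at most 2 counts and had 89 to 455 counts in the other 9 seedlings.

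Of the 15 layouts held by 2 or more genes, 7 had 2 of their genes with at most 20 genes between them in the table. The other 8 did not, and in 5 of these the genes had different identifier prefixes. The table is sorted by identifier, and identifiers of 1 prefix are taken here as ordered, without coordinates, which were not used. Identifiers of prefix QL93 counted as 1 series although the number after it differs, as between QL93p2016_0075 and QL93p2017_0027. Each of the 125 genes was compared with the next of them under the same prefix. Where these 2 were in adjacent rows, they had the same layout in 4 of 4 cases. With 1 to 5 genes between them it was 2 of 10 cases, with 6 to 20 genes 2 of 10, with 21 to 100 genes 0 of 21, and with more than 100 genes 1 of 67. Exactly opposite layouts were found in 0 of these 112 cases. Genes with another of the 125 between them were not compared here, so the counts do not cover every shared layout. Of the 8 layouts above without close genes, 3 had 2 genes of 1 prefix. The adjacent pairs were QL04p058624 and QL04p058632, QL05p000021 and QL05p000148, QL05p075896 and QL05p075907, and QL11p008429 and QL11p008449.

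In the last of these, the 2 genes also rose and fell together among the on seedlings. QL11p008429 had 381, 318, 124 and 49 counts in HV-11, 0, 226, 0 and 40 in LAY-15, and 269, 129, 0 and 829 in YORK-09. QL11p008449 had 616, 492, 165 and 123, then 0, 398, 0 and 34, and then 494, 272, 2 and 1202 counts in the same seedlings. The highest seedling of each was YORK-09-37. QL10p045782 and QL10p045923, with 3 genes between them, shared a layout as well, off in HV-11-05, HV-11-34 and YORK-09-10 with at most 2 counts and on in the other 9 with 305 to 2285 and 208 to 981 counts. Neighbouring identifiers that are pieces of 1 transcribed unit cannot be told apart here from separate genes.

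Genes outside the 125 were then read next to them, a comparison added after the first results were seen. For each of the 125 genes, every other gene with a mean of 10 counts or more was asked whether its CPM separated the on from the off seedlings without overlap. In rows directly adjacent, 33 of 107 comparisons (30.8%) were higher in every on than in every off seedling and 1 (0.935%) was lower. At 2 to 5 rows these shares were 6.78% and 1.85% of 487 comparisons, at 6 to 20 rows 1.26% and 0.682% of 1905, and over all genes 0.362% and 0.371%. Of the 78 genes with such a neighbour in an adjacent row, 31 had at least 1 that separated. The values of these neighbours had no part in the selection. Some neighbours count for several genes, so no test was made.

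QL12p029661, in the row before QL12p029668, is an example chosen after its values were seen. It had 614, 0, 1 and 3 counts in HV-11, 4, 940, 152 and 414 in LAY-15, and 5345, 2932, 0 and 1160 in YORK-09, close to those of its neighbour in each seedling. QL01p000526, 2 rows from QL01p000499, had 0 or 1 count in each of the 4 seedlings of day 19 and 21 to 256 counts in the other 8. The 1 adjacent gene in the opposite sense was QL11p033289, with 61, 65 and 72 counts in the 3 treated seedlings where QL11p033306 was off and 5 to 59 counts in the others.

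**Figure D5:**
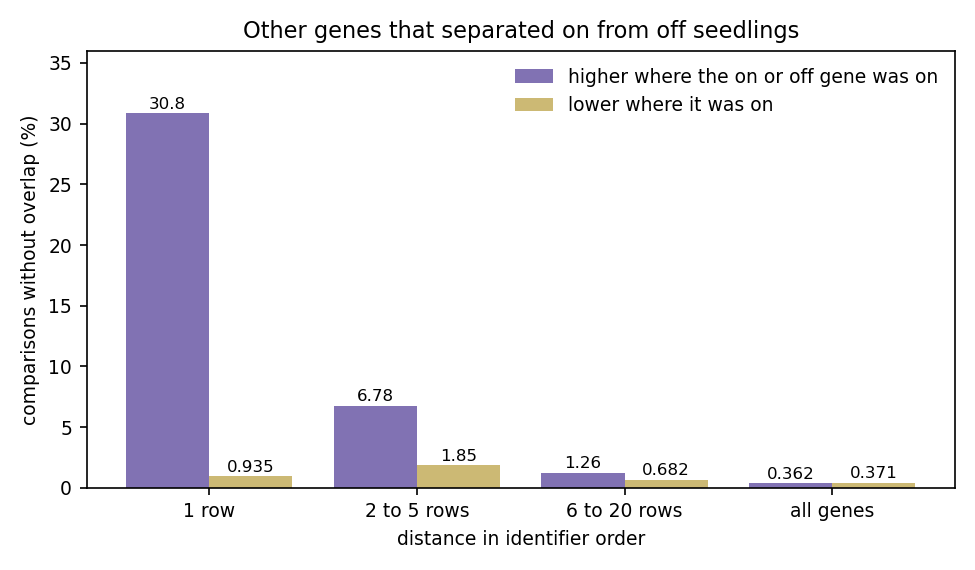
Bars give the percent of comparisons in which a gene outside the 125 separated the on from the off seedlings without overlap, by distance in identifier order and over all genes. The share higher where the on or off gene was on falls from 30.8% in adjacent rows to 1.26% at 6 to 20 rows, against 0.362% over all genes.

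The 125 genes were found under every identifier prefix. Their share ran from 0.170% of the genes with prefix QL12 (4 of 2349) to 0.543% of those with prefix QL11 (15 of 2763), and 8 of 863 genes (0.927%) belonged to prefix QL93, whose identifiers have a longer form. These shares are not scaled to how many genes of a prefix were expressed, and were not tested.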

How the data were processed

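Leaf RNA of 12 seedlings was sequenced from TruSeq v2 libraries. The deposited values are raw read counts per gene, which the authors made by trimming with cutadapt 2.3, aligning to the valley oak genome with STAR 2.7.1, keeping uniquely mapped reads with SAMtools 1.9, removing platform duplicates found by Picard 2.20.3 and counting with HTSeq 0.11.1. All columns were used.

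Genes were called on at 30 counts or more and off at 3 or fewer. The genes and the comparisons were chosen with earlier results of these data known. Tests ran in R 4.3.3 with edgeR 4.0.16 (TMM, filterByExpr with a minimum count of 10 and minimum total count of 15, quasi-likelihood test, Benjamini-Hochberg adjustment over all 23791 genes kept) and, as the alternative, DESeq2 1.42.0. All 125 genes passed the filter. Approximate standard errors come from the test statistic. Named genes were taken by a rule: the extremes by treatment, day, family, shared layout and level, and the first at each threshold. The rule's neighbouring genes with opposite layouts numbered 0.

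Pairs share family and day by the labels. Deviations from treatment means correlated at 0.0507 to 0.503 within the 6 pairs (mean 0.222). Alternatives covered the thresholds, scaling, filter, covariates, pair block, days, families and each seedling left out. The scripts were tested on simulated data. Figures used matplotlib 3.10.9.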

Additional observations from a re-analysis of the deposited data

Results flagged for a closer look

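Values were checked for a seedling far from the others of its group, per seedling over all the genes (by treatment, family and day) and per named gene (by treatment). In all, 10 of 62 groups had such a seedling, where chance marks about 1 in 20, and all 10 were counts of named genes. For genes chosen as on or off, a lone on seedling meets this criterion by construction, as in QL11p040919 (210 counts in the control HV-11-34), QL06p019074 (231 in the control LAY-15-30), QL09p035049 (131 in the control HV-11-05) and QL01p000861 (33 in the treated LAY-15-34). In the others, 1 on seedling stood above the rest. QL12p029668 had 4341 counts in the control YORK-09-03 and 3886 in the treated YORK-09-08, the pair of day 16. The control YORK-09-03 also stood apart in QL04p033234 with 1410 counts, and the treated YORK-09-08 in QL01p000499 with 284. QL11p006325 had 1120 counts in the treated YORK-09-37. QL11p013986 had 1797 counts in the treated HV-11-40.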

How the results depend on the processing

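The number of genes chosen depended on the thresholds. It was 65 with off at 1 count or fewer, 165 with off at 5 or fewer, 306 with on at 15 counts or more, 54 with on at 60 or more, and 112 with thresholds on CPM (0.3 and 3 CPM). Under these 5 settings 0 genes divided along treatment, and agreement within pairs stayed between 59.4% and 62.8%. Adjacent genes with the same layout numbered 1, 7, 16, 0 and 3 in the same order, of 1, 7, 19, 0 and 3 adjacent cases. The share of adjacent outside genes that separated on from off seedlings was 25% for genes with a mean of 100 counts or more and 34.6% without the LAY-15 pair of day 19, where the share over all genes rose to 1.59%; these settings were chosen after seeing the data.

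Between treatments, edgeR called 0 of the genes in 20 alternative fits, the pairs as a replicate block included. With that block 4 had an unadjusted p-value under 0.05, beside 704 of all 23791 genes. Over the 20 fits 0 to 11 genes had an unadjusted p-value under 0.05, beside 605 to 1070 of all genes tested. Between days 30 and 19, edgeR called 0 genes in 16 of 18 alternative fits and 1 gene, QL01p000499, in the other 2, without treatment or without family in the model. DESeq2 called 13, and 12 without LAY-15, where only HV-11 held both days. The cause of these differences was not tested. With on set at 30 counts, genes below about 3 CPM could not enter the selection.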
